A study of Mus musculus with 35 samples.

Results

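The comparison described here set medullary thymic epithelial cells (mTECs) of mouse thymus that were positive for an Ins2 reporter against mTECs that were negative for it. Its members are the 6 arrays that the labels name as Ins2-positive replicates 1 to 3 and Ins2-negative replicates 1 to 3, of 35 arrays in the series. The series holds such a pair of sorted fractions for each of 6 antigens. Cells were isolated by fluorescence-activated sorting, with reporter mice for Ins2 and Gad1 and with antibodies for Pdpn, Gp2, Cea1 and Tspan8. The 3 Ins2-positive arrays hold total RNA of sorted cells carrying the reporter signal, and the 3 Ins2-negative arrays hold total RNA of sorted cells without it. Genotype of the reporter allele, strain, age, sex, sorting gates and the number of animals per array are not given in the sources used here. The labels call the arrays biological replicates without saying whether they came from separate animals, so p-values measure the spread between these samples, which may be technical.

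mTECs transcribe genes that are otherwise restricted to single tissues and present the products to developing T cells, so that T cells which would attack those tissues can be removed or diverted. The transcriptional regulators Aire and Fezf2 drive many such genes. Any one of these antigens is made by a minority of mTECs at a time, and some mTECs resemble specialised peripheral cells such as keratinocytes, tuft cells, microfold cells or enterocytes. Insulin is a classic example of such an antigen, since its thymic transcription limits T cells that recognise pancreatic beta cells. The series was designed to find the genes whose transcripts accompany each antigen in mTECs.

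Signals are given as log2 of the authors' normalized bead intensity, and every difference is Ins2-positive minus Ins2-negative given with its standard error (SE) from limma. A gene was tested if a probe for it was detected, at a detection p under 0.05, on at least 2 of 3 arrays of either group. This left 15532 genes. A gene was called higher or lower at an adjusted p under 0.05 (limma, Benjamini and Hochberg over the genes tested), and all adjusted p-values below are of this kind. Of 46089 probes, 23485, 24212 and 23145 were detected on the Ins2-positive arrays, against 26424, 26171 and 25269 on the Ins2-negative arrays. The number was lower on every positive array, and its part in the results was not tested. Log2 signals correlated at 0.988 to 0.990 among positive arrays, at 0.990 to 0.993 among negative arrays and at 0.944 to 0.957 between the groups (Pearson, across genes, which are not independent replicates). With 3 arrays a group, array number sets the precision. In RNA of a sorted fraction, fewer cells of a type and less RNA per cell cannot be told apart.

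Ins2 itself, an insulin gene, had log2 signals of 8.18, 8.35 and 8.46 on the Ins2-positive arrays, against 7.24, 7.44 and 7.33 on the Ins2-negative arrays. Every positive array lay above every negative array, and the transcript was detected in both fractions. The difference was 1.00 (SE 0.12), a fold of 2.00 with a 95% interval of 1.68 to 2.37 (adjusted p = 4.4e-06). Dim signals sit on an uncorrected background in the authors' values, whose lowest entry on these arrays was 72.0, so folds of dim genes are understated. With background correction of the unnormalized intensities (neqc), which leaves 3 arrays against 2, the Ins2 difference was 1.70. Of 125 named genes called, 24 had a neqc fold over 1.5 times the fold given here, up to 3.08 times, in the same direction. Ins1, the other insulin gene of the mouse, had no probe under that symbol and was not tested.

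Of the 15532 genes, 2943 were higher in Ins2-positive cells (18.9%) and 3019 were lower (19.4%), together 38.4%. All 3 positive arrays lay above all 3 negative arrays for 23.9% of genes and below them for 25.0%. At least a 2-fold difference was met by 487 of the higher and 349 of the lower genes. The median difference over all genes was -0.01. The genes with the largest increases included products of gut, airway, liver and skin, and the Ins2 difference was well below theirs.

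**Figure D1:**
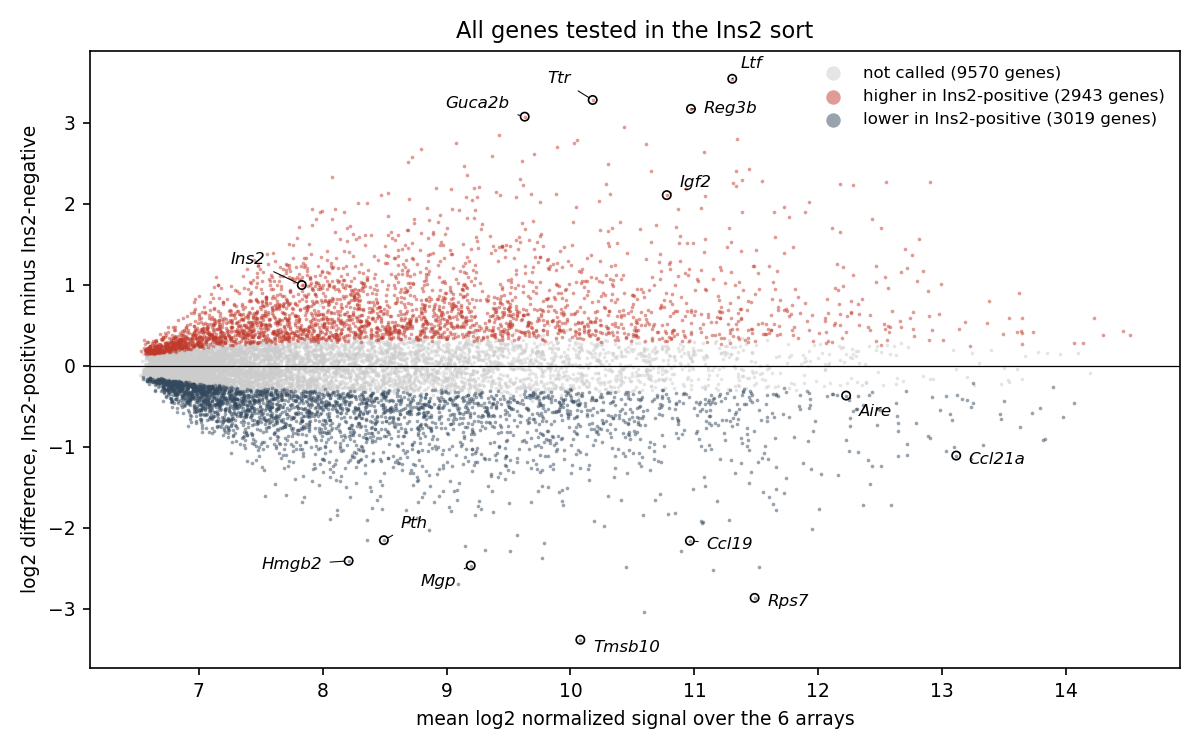
Each point is 1 of 15532 genes, with the mean log2 normalized signal over the 6 arrays on the x axis and the log2 difference, Ins2-positive minus Ins2-negative, on the y axis. Red points are the 2943 genes higher in Ins2-positive cells, dark points the 3019 lower and grey points those not called. Ins2 sits at a difference of 1.00, while Ltf, Ttr, Reg3b and Guca2b exceed 3.

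Secreted products of the intestine were among the genes with the largest increases. Guca2b, the precursor of the gut peptide uroguanylin, had log2 signals of 11.03, 10.76 and 11.73 in Ins2-positive cells, against 8.04, 7.92 and 8.32 in Ins2-negative cells. The groups were far apart, and positive array 3 was the highest of all. Its difference was 3.08 (SE 0.19), an 8.44-fold increase (95% interval 6.40 to 11.1, adjusted p = 3.8e-09). Reg3b, a lectin that binds gut bacteria, had 12.39, 12.34 and 12.94 in positive cells, against 9.48, 9.41 and 9.27 in negative cells, a 9.02-fold increase (adjusted p = 2.8e-10). Apoa4, an apolipoprotein of chylomicrons, had 12.65, 12.33 and 13.24 in positive cells, against 10.11, 9.87 and 9.83 in negative cells, a 6.98-fold increase (adjusted p = 3.3e-09). Neither gene had overlapping groups. Prap1, a secreted protein of gut epithelium, rose 6.68-fold.

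The windows around the start sites of these 3 intestinal genes are shown because the genes rose together and lie on different chromosomes. Each runs 5′ to 3′ on the gene's strand, with 250 bases before and 50 after the start (RefSeq, GRCm38.p6). Reg3b lies at chr6:78370635-78370934 on the plus strand, Guca2b at chr4:119658896-119659195 on the minus strand and Apoa4 at chr9:46240594-46240893 on the plus strand. Capitals mark matches to the 4 motifs searched.
Reg3b: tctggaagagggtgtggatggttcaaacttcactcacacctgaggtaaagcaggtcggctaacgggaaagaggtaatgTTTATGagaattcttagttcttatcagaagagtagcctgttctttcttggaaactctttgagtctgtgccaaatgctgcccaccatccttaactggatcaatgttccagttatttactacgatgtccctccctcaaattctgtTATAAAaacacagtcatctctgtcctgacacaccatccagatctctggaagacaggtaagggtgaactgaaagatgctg
Guca2b: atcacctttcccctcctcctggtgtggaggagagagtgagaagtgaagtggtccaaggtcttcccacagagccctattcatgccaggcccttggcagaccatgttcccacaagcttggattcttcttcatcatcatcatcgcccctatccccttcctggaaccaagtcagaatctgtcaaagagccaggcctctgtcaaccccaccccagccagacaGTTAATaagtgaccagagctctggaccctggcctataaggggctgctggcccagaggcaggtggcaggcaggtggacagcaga
Apoa4: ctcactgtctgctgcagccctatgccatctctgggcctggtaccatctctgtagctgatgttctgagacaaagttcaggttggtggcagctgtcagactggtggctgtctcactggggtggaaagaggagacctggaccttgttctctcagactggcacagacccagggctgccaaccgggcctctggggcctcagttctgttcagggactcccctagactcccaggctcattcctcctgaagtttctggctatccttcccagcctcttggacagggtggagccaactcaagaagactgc
The TATA box TATAAA was searched on the gene's strand, and the HNF1 half-site GTTAAT, the GATA motif AGATAA and the CDX motif TTTATG on both strands. No motif overlapped another in these windows. The Reg3b window held TATAAA at position -29 and TTTATG at -172 from the start, and the Guca2b window held GTTAAT at -33. The Apoa4 window held none of the 4. Of 32851 mouse windows of this length, 8.32% held TATAAA, 7.10% GTTAAT, 11.2% AGATAA and 11.9% TTTATG. A match is a description of the letters, not of a bound site.

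Gut lists moved in the same direction as these genes. Counts of called list members, here and below, are to be read beside the 18.9% higher and 19.4% lower over all genes. Of 14 intestinal enterocyte genes tested, 10 were higher and 1 lower, with a median difference of 0.80. Sis, the sucrase-isomaltase of the brush border, had 9.89, 10.20 and 10.95 in positive cells, against 7.73, 8.05 and 8.17 in negative cells, and rose 5.14-fold (SE 0.20, adjusted p = 1.5e-07). Its groups did not overlap. Cdhr5, a protocadherin that links microvilli, rose 4.87-fold, and the actin bundler Vil1 rose 3.53-fold. The homeobox regulator Cdx1 was lower, by 0.79 on the log2 scale, and Cdx2 was at -0.13 and was not called. Of 16 gut peptide and enteroendocrine genes, 7 were higher and 1 lower, with a median of 0.37. Without Ins2-positive replicate 3 the median was 0.23 with 6 higher, without Ins2-negative replicate 3 it was 0.25 with 6 higher, and without Ins2-positive replicate 2 it was 0.50 with 10 higher. Guca2a, which encodes guanylin, rose 5.75-fold, or by a log2 difference of 3.34 with neqc.

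Genes of liver plasma proteins followed, with 11 of 20 higher and 2 lower and a median of 0.44. Ttr, the carrier of thyroxine and retinol-binding protein, had 11.43, 11.60 and 12.44 in Ins2-positive cells, against 8.46, 8.75 and 8.41 in Ins2-negative cells. The lowest positive array was well above the highest negative array. Ttr rose 9.74-fold (difference 3.28, SE 0.20, adjusted p = 2.9e-09). The apolipoproteins Apoc3 and Apoa1 rose 4.96-fold and 4.35-fold, and transferrin (Trf) rose 4.73-fold. Apoa2 and Itih1 were lower, with differences of -0.56 and -0.62.

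Skin genes formed the list with the highest median, 1.54. Of 22 genes of cornified keratinocytes, 18 were higher and 1 lower. Lgals7, a keratinocyte galectin outside the list, had 12.15, 11.51 and 12.06 in positive cells, against 8.99, 8.90 and 8.98 in negative cells, a 7.72-fold increase (adjusted p = 5.0e-10). Within the list, Sbsn (suprabasin) rose 6.74-fold, or more than 1.5 times that fold with neqc (log2 difference 3.50). The cornified envelope proteins Sprr2d and Ivl rose 6.53-fold and 6.11-fold, and the suprabasal keratin Krt10 rose 4.81-fold. Sprr genes are close paralogs, whose probes can bind each other's transcripts.

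Airway genes were higher for 9 of 12, with the other members not called and a median of 1.36. Ltf, the iron-binding lactoferrin of mucosal secretions, showed the largest increase of any named gene. It had 13.19, 13.09 and 12.96 in positive cells, against 9.36, 9.50 and 9.74 in negative cells. The positive arrays lay within a narrow range far above the negative ones. Ltf rose 11.7-fold (difference 3.54, SE 0.12, 95% interval 9.82 to 13.9, adjusted p = 1.5e-11). Bpifa1, a secreted protein of upper airways, rose 6.88-fold, the surfactant protein Sftpd 5.30-fold and the club cell enzyme Cyp2f2 4.36-fold. Ciliary Foxj1 was at 0.11 and was not called.

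Tuft cells are chemosensory epithelial cells that signal through Trpm5. Of 12 of their genes tested, 9 were higher and the others not called, with a median of 1.21. Trpm5, the cation channel, had 10.30, 9.64 and 9.71 in positive cells, against 8.68, 8.43 and 8.05 in negative cells, a 2.83-fold increase (adjusted p = 4.5e-06). Its groups did not overlap. The phospholipase Plcb2 rose 3.04-fold and the leukotriene synthase Ltc4s 2.45-fold. The regulator Pou2f3 was detected on too few arrays to be tested. Of 10 genes of microfold cells, which sample luminal antigen in the gut, 6 were higher and 1 lower (median 0.67). Gp2, their receptor for bacteria, had 12.90, 12.88 and 13.09 in positive cells, against 11.27, 11.47 and 11.03 in negative cells, a 3.25-fold increase. The chemokines Ccl9 and Ccl20 rose 3.34-fold and 2.53-fold.

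The glutathione transferases Gsta4 and Gsto1 rose 7.21-fold and 6.73-fold. Among genes detected on no negative array, a bound is given in place of the fold. It sets the mean of the positive arrays against, for each negative array, the higher of the lowest signal of a detected probe and the probe's own signal. Chil6, a chitinase-like protein, was at least 1.78-fold higher. The magnesium transporter relative Nipal1, the hair keratin Krt82 and the cilium gene Cfap43 were at least 1.73-fold, 1.70-fold and 1.49-fold higher.

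**Figure D2:**
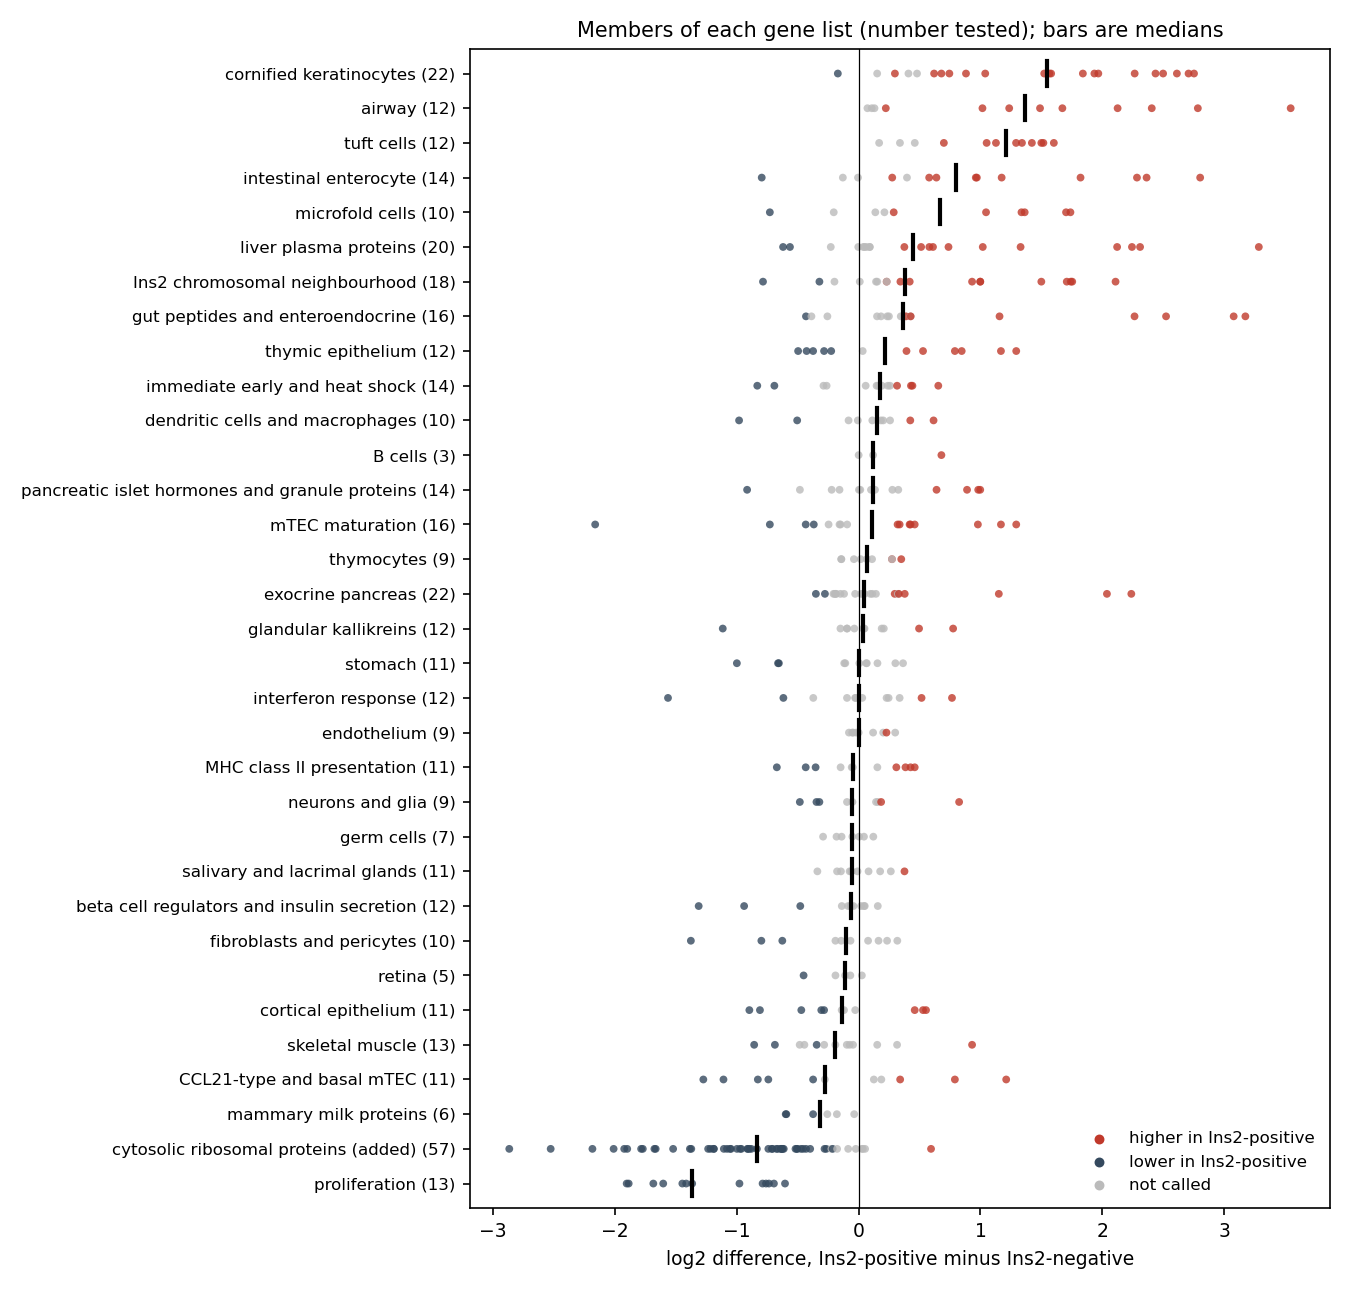
Each point is the log2 difference of 1 gene, Ins2-positive minus Ins2-negative, on the x axis, with the gene lists down the y axis in order of their medians (black bars) and the number of tested members in brackets. Cornified keratinocyte, airway and tuft cell lists have medians of 1.54, 1.36 and 1.21, and every tested member of the proliferation list is lower.

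The endocrine pancreas, where insulin is normally made, did not move as a group. Of 14 islet hormone and granule genes tested, 4 were higher and 1 lower (median 0.12). The higher genes were Ins2, the carboxypeptidase Cpe (1.97-fold), the peptide hormone Pyy (1.85-fold) and the chaperone Scg5 (difference 0.64). Glucagon (Gcg) had 7.41, 7.48 and 7.58 in positive cells, against 8.66, 8.24 and 8.31 in negative cells. All positive arrays were below all negative arrays, a 1.88-fold decrease (adjusted p = 2.6e-05). Somatostatin (Sst), Iapp and Chga had differences of -0.48, 0.10 and -0.16 and were not called.

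Regulators of beta cells and of insulin secretion were higher for 0 of 12 genes by limma and lower for 3, with a median of -0.06. At an unadjusted p under 0.05, 1 of the 12 was higher. Mafa was called higher without Ins2-positive replicate 3 (difference 0.20, adjusted p = 0.0454) and without Ins2-negative replicate 2 (0.21, adjusted p = 0.0486), and neqc called 0 higher. Isl1, a LIM homeobox factor of islets and neurons, had 8.80, 9.38 and 9.12 in positive cells, against 10.16, 10.51 and 10.55 in negative cells. The groups did not overlap, and Isl1 was 2.48-fold lower (SE 0.15, adjusted p = 3.3e-06). Insm1, a zinc finger factor of endocrine cells, was 1.92-fold lower. Neurog3, the endocrine progenitor factor, was lower by 0.48 (adjusted p = 0.013), but its groups overlapped and the call was lost without Ins2-positive replicate 3 (difference -0.32, adjusted p = 0.0817) and without Ins2-negative replicate 1 (-0.43, adjusted p = 0.0546). Pdx1, Nkx6-1 and Mafa, regulators of beta cell identity, had differences of 0.04, 0.02 and 0.16 and were not called. Neurod1, Nkx2-2, Pax6 and Glp1r were not detected on enough arrays to be tested.

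Exocrine pancreas genes were split, with 6 of 22 higher and 2 lower (median 0.04). The trypsin inhibitor Spink1 had 13.15, 13.40 and 13.64 in positive cells, against 11.05, 11.14 and 11.29 in negative cells, a 4.72-fold increase (adjusted p = 9.4e-10). The lectin Reg1 rose 4.11-fold. Spink1 and Reg1 are also made outside the pancreas, in the gut. The lipase Pnliprp2 rose 2.22-fold, with 7.38, 7.83 and 8.93 on the positive arrays. Of the digestive zymogens, Ctrb1 and Cela1 were higher by 0.38 and 0.33, whereas Try4 and Cela3b were lower, with differences of -0.28 and -0.35. Cpa1, Prss2 and Clps, at 0.03, -0.03 and -0.18, were not called.

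Genes of other glands and organs are given beside the 38.4% called over all genes. In the glandular kallikrein family, serine proteases of salivary gland, 2 of 12 were higher and 1 lower (median 0.04). Klk1b27 was 2.16-fold lower while Klk1b26 was 1.71-fold higher, and probes of this family can bind transcripts of its other members. Of 11 salivary and lacrimal genes, 1 was higher (Dcpp2, adjusted p = 0.043), and that call was lost with quantile normalization (difference 0.34, adjusted p = 0.0706), with median scaling, with neqc and without single arrays. Of 11 stomach genes 3 were lower and the others not called, among them Atp4b, a subunit of the gastric proton pump (2.00-fold lower). Milk proteins were lower for 3 of 6, with the caseins Csn1s1 and Csn1s2b both 1.51-fold lower. Skeletal muscle genes were higher for 1 and lower for 3 of 13, genes of neurons and glia higher for 2 and lower for 3 of 9, retina genes lower for 1 of 5, and limma called 0 of 7 germ cell genes (0 at an unadjusted p under 0.05, and 0 with neqc). Prm1, a sperm protamine, was called lower without Ins2-positive replicate 1 (difference -0.41, adjusted p = 0.0378), and Zp3, of the egg coat, without Ins2-positive replicate 3 (-0.34, adjusted p = 0.0371). The 5 organ lists of stomach, milk, germ cells, retina and muscle had medians between -0.31 and 0.01, and that of the stomach list changed sign with median scaling.

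mTEC regulators moved little. Aire had 11.98, 12.03 and 12.11 in Ins2-positive cells, against 12.56, 12.39 and 12.27 in Ins2-negative cells. The groups did not overlap and Aire was 1.29-fold lower (difference -0.37, SE 0.10, adjusted p = 0.0083), but the call was lost without Ins2-negative replicate 1 (difference -0.29, adjusted p = 0.0506). Fezf2 and the costimulatory ligand Cd80 had differences of -0.16 and -0.09 and were not called. Cd86, another costimulatory ligand, was 1.97-fold higher (difference 0.98, adjusted p = 1.9e-05), and 1 of its 2 other probes had the same sign. Of 16 genes of mTEC maturation, 8 were higher and 4 lower. With quantile normalization 6 were higher and 5 lower, and with neqc 5 were higher and 5 lower. The tight junction proteins Cldn3 and Cldn4 rose 2.45-fold and 2.25-fold. The chemokine Ccl19, which draws T cells and dendritic cells, fell to 9.76, 10.02 and 9.88 in positive cells, against 12.01, 12.13 and 11.99 in negative cells, a 4.47-fold decrease (adjusted p = 6.8e-10).

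Antigen presentation genes went both ways. Of 11 genes of MHC class II presentation, 4 were higher and 3 lower. With quantile normalization, and likewise with neqc, 1 was higher and 3 lower. H2-Aa, an alpha chain that presents peptides, had 12.98, 12.83 and 13.18 in positive cells, against 12.48, 12.58 and 12.54 in negative cells, a 1.38-fold increase (adjusted p = 0.0014). H2-DMb2, a subunit of the peptide exchange factor, was 1.59-fold lower. The bright genes H2-Ab1 and Cd74 were called higher, but neither call held with quantile normalization (differences 0.14 and 0.07) or with neqc (0.14 and 0.08), and 1 of 2 other probes of each gene had the opposite sign.

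Genes of CCL21-type and basal mTECs were mixed, with 3 of 11 higher and 5 lower (median -0.28, against -0.09 without Ins2-negative replicate 3 and -0.42 without Ins2-negative replicate 1). Ccl21a, a chemokine that brings thymocytes into the medulla, had 12.38, 12.70 and 12.59 in positive cells, against 13.35, 13.71 and 13.94 in negative cells. No arrays overlapped, and Ccl21a was 2.16-fold lower (SE 0.13, adjusted p = 3.2e-06). Podoplanin (Pdpn), a membrane mucin, was 2.42-fold lower, while the basal keratin Krt15 was 2.32-fold higher. Among 11 cortical epithelial genes, 3 were higher and 5 lower, with the chemokine Cxcl12 1.86-fold lower and the thymic gene Tbata 1.75-fold lower. Of 12 general thymic epithelial genes 6 were higher and 5 lower. Epcam, which marks thymic epithelium, had signals of 6.59 to 6.74 on the 6 arrays, close to the level of undetected probes, and was not called (difference 0.03). The summed linear signal of the 12 genes was 39162 to 43689 on positive arrays and 27338 to 31646 on negative arrays, and the keratin Krt18 was 1.80-fold higher.

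Every tested gene of the proliferation list was lower in Ins2-positive cells, 13 of 13, with a median of -1.36. Cdk1, the mitotic kinase, had 7.14, 7.21 and 7.01 in positive cells, against 8.94, 8.65 and 9.43 in negative cells, a 3.70-fold decrease, or 8.22-fold with neqc. All positive arrays lay below all negative ones. The mitotic kinase Pbk and the survivin gene Birc5 were 3.74-fold and 3.21-fold lower, and the replication factor Pclaf 3.04-fold lower, also with larger folds under neqc. Chromatin genes tied to dividing cells were among the largest decreases, with Hmgb2 5.31-fold and the histones H2ac15 and H2ac12 5.18-fold and 4.88-fold lower. Cbx5 and Cenpi, of heterochromatin and the centromere, were detected on no positive array and were at least 1.70-fold and 1.57-fold lower. Tril, a Toll-like receptor adaptor, was at least 1.54-fold lower on the same basis.

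The largest decrease of all was that of Tmsb10, an actin-sequestering thymosin, with 8.10, 8.71 and 8.35 in positive cells, against 11.72, 11.77 and 11.82 in negative cells. The groups were separated by more than 3 log2 units. Tmsb10 was 10.4-fold lower (difference -3.38, SE 0.14, adjusted p = 1.1e-10). Ribosomal proteins supplied the next ones. Rps7 had 9.99, 10.20 and 9.97 in positive cells, against 12.83, 12.98 and 12.94 in negative cells, a 7.29-fold decrease (adjusted p = 2.8e-11). Rps6 was 5.76-fold lower, and probes annotated to the pseudogenes Rpsa-ps2, Rpl29-ps2 and Rpl7a-ps3 were 5.59-fold, 5.59-fold and 4.87-fold lower. Those probes may bind transcripts of the parent genes. A list of cytosolic ribosomal proteins, added after these values were seen, had 49 of 57 lower and 1 higher (Rpl23, 0.59), with a median of -0.83. Its members ranged from -2.87 to 0.59, and the source of this range was not tested. Mgp, matrix Gla protein, had 7.77, 8.06 and 8.05 in positive cells, against 10.01, 10.57 and 10.71 in negative cells, a 5.52-fold decrease.

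**Figure D3:**
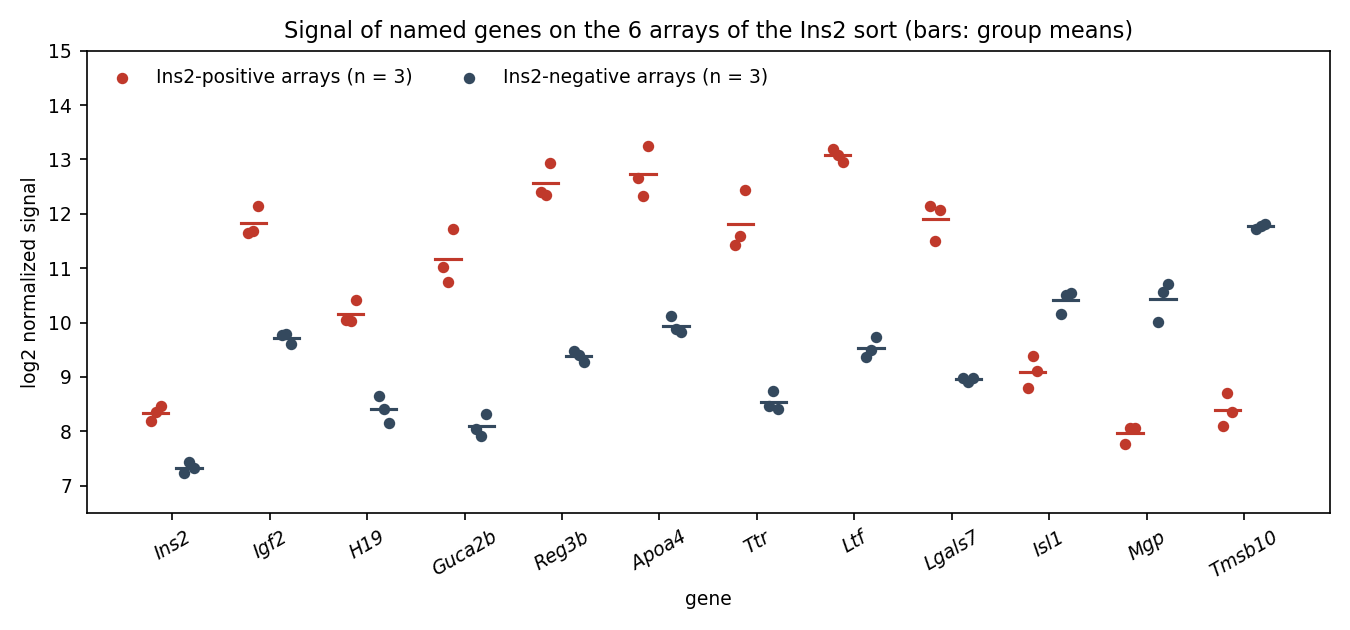
Each point is 1 array, with the log2 normalized signal on the y axis and genes along the x axis. Ins2-positive arrays (red, n = 3) stand left of Ins2-negative arrays (dark, n = 3), and bars are group means. The groups of these 12 genes do not overlap, with Isl1, Mgp and Tmsb10 lower in Ins2-positive cells and the other 9 higher.

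The positive arrays differed among themselves along the same tissue programmes, as was seen after inspection of the values. Of the 10 enterocyte genes called higher, 9 had their highest positive signal on Ins2-positive array 3, as had 6 of the 7 gut peptide genes and 7 of the 11 liver genes. For cornified keratinocytes 14 of 18 had their lowest positive signal on that array, and for airway genes 6 of 9. Of the 9 tuft cell genes called higher, 0 had their highest and 4 their lowest positive signal on that array. Over all genes tested, called or not, array 3 was the highest positive array for 34.1% and the lowest for 34.4%. The list counts take only genes called higher, so these shares are not of the same kind of genes. Without that array, enterocyte genes were higher for 10 and lower for 1 of 14 (median 0.71), and cornified keratinocyte genes higher for 18 of 22 (median 1.65).

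Markers of cells that could be sorted along were read on the same arrays. Over all genes 18.9% were higher and 19.4% lower, and the counts here stand beside these shares. Of 10 fibroblast and pericyte genes 3 were lower and the others not called, and their summed linear signal was 3415 to 3577 on positive arrays, against 5656 to 6559 on negative arrays. The lower genes were Acta2 (2.59-fold), Fbln1 (1.74-fold) and Dcn (1.54-fold), while the collagens Col1a1, Col1a2 and Col3a1 were not called. Pdgfra, which defines fibroblasts, was not detected on enough arrays to be tested. Thymocyte genes were higher for 2 of 9 (summed 1931 to 2291 on positive and 1838 to 1933 on negative arrays), both calls (Cd8b1 and Zap70) were lost under some alternatives, and Cd4, Cd8a, Rag2 and Themis were not detected on enough arrays. Dendritic cell and macrophage genes were higher for 2 and lower for 2 of 10 (summed 2782 to 2820 on positive and 2980 to 3728 on negative arrays), with Itgax, Flt3, Xcr1 and Clec9a not detected on enough arrays. B cell genes were higher for 1 of 3 (summed 664 to 686 on positive and 461 to 515 on negative arrays) and endothelial genes for 1 of 9 (summed 1875 to 2128 on positive and 1861 to 1975 on negative arrays). The sole higher B cell gene was Cd79b (1.60-fold), and another probe for it had the opposite sign. Immediate early and heat shock genes, which cell dissociation can induce, were higher for 4 and lower for 2 of 14 (median 0.18), and interferon response genes higher for 2 and lower for 2 of 12 (median 0.00), with the chemokine Cxcl10 2.96-fold lower. The part of these cells in the results above was not tested.

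Ins2 lies on chromosome 7 in a domain rich in imprinted genes, which are transcribed from 1 parental copy. Of 17 tested neighbours, Ins2 itself left out, 10 were higher and 2 lower, with a median of 0.34. Igf2, a growth factor next to Ins2, had 11.65, 11.69 and 12.15 in positive cells, against 9.78, 9.79 and 9.60 in negative cells, a 4.31-fold increase (adjusted p = 5.4e-09). H19, an imprinted noncoding RNA, had 10.04, 10.03 and 10.41 in positive cells, against 8.66, 8.41 and 8.16 in negative cells, a 3.37-fold increase (adjusted p = 1.0e-07). For both genes all positive arrays were above all negative ones. The imprinted cell cycle inhibitor Cdkn1c rose 3.27-fold and Syt8, a synaptotagmin, 3.34-fold. Their neighbours Th, Ascl2 and Tspan32, at 0.14, 0.01 and -0.20, were not called, and the tetraspanin Cd81 fell by 0.78. Genes called higher therefore lay on both sides of a stretch from Th to Cd81 in which no gene was higher.

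**Figure D4:**
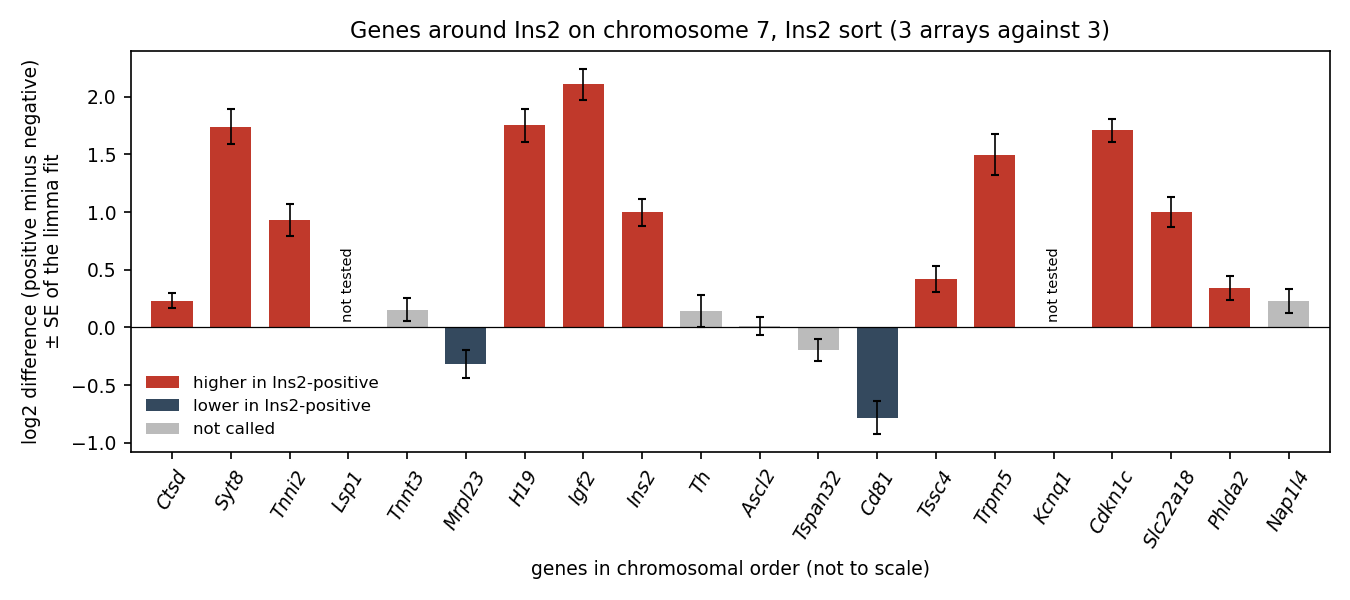
Bars give the log2 difference, Ins2-positive minus Ins2-negative, with the SE of the limma fit (3 arrays against 3), for genes in their order on chromosome 7, spaced evenly. Igf2 (2.11), H19 (1.75) and Syt8 (1.74) exceed Ins2 (1.00), and Lsp1 and Kcnq1 were not tested.

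The Gad1 sort, the other one by reporter mice, was set against the Ins2 sort with a test of the difference between both differences over all 35 arrays. The difference in the Ins2 sort was above that in the Gad1 sort for 1808 genes (11.6%) and below it for 2130 (13.7%), together 25.4%. The sorts share no arrays. Of 3613 genes called in both, 3158 had the same direction and 455 the opposite one. Ins2 transcript differed less in its own sort, at 1.00, than in the Gad1 sort, at 1.97 (difference -0.97, SE 0.16, adjusted p = 1.6e-05).

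Lists of glandular and endocrine genes had many members below the Gad1 sort, beside 13.7% over all genes, and so had several other lists. Of the 12 kallikreins, 11 were below the Gad1 sort, with medians of 0.04 in the Ins2 sort and 1.54 in the Gad1 sort. The same held for 9 of 11 stomach genes (medians 0.01 and 0.91), 13 of 22 exocrine pancreas genes (0.04 and 0.63) and 9 of 14 islet genes (0.12 and 0.86). Gut peptide genes were below the Gad1 sort for 8 of 16 and above it for 3 (medians 0.37 and 1.31). Cornified keratinocyte genes were below it for 8 of 22 and above it for 1 (medians 1.54 and 1.87). Tuft cell genes were below it for 5 of 12 (medians 1.21 and 1.54), milk protein genes for 5 of 6 and germ cell genes for 4 of 7. In each of these last lists 0 were above it. Igf2 and H19 were at 2.11 and 1.75 in the Ins2 sort and at 2.52 and 1.96 in the Gad1 sort, and neither difference between the sorts passed the test (adjusted p = 0.207 for Igf2 and 0.493 for H19). Klk1b27 was at -1.11 in the Ins2 sort and 2.13 in the Gad1 sort. The calcium-binding S100a8 was at -1.70 and 1.36, Tsc22d1, a leucine zipper factor, at -1.70 and 1.30, and Mgp at -2.47 and 0.53. Ttr and Reg3b were above the Gad1 sort, at 3.28 against 2.37 and at 3.17 against 2.22. The liver plasma protein list, which holds Ttr, was below the Gad1 sort for 8 of 20 genes and above it for 2 (medians 0.44 and 1.02). Tkfc, a kinase of fructose metabolism, stood furthest above it among genes called in the Ins2 sort (2.00 against 0.10), and coagulation factor F10 stood at 1.90 against 0.43. Proliferation genes had medians of -1.36 in the Ins2 sort and -2.01 in the Gad1 sort, and 8 of 13 were above the Gad1 sort.

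**Figure D5:**
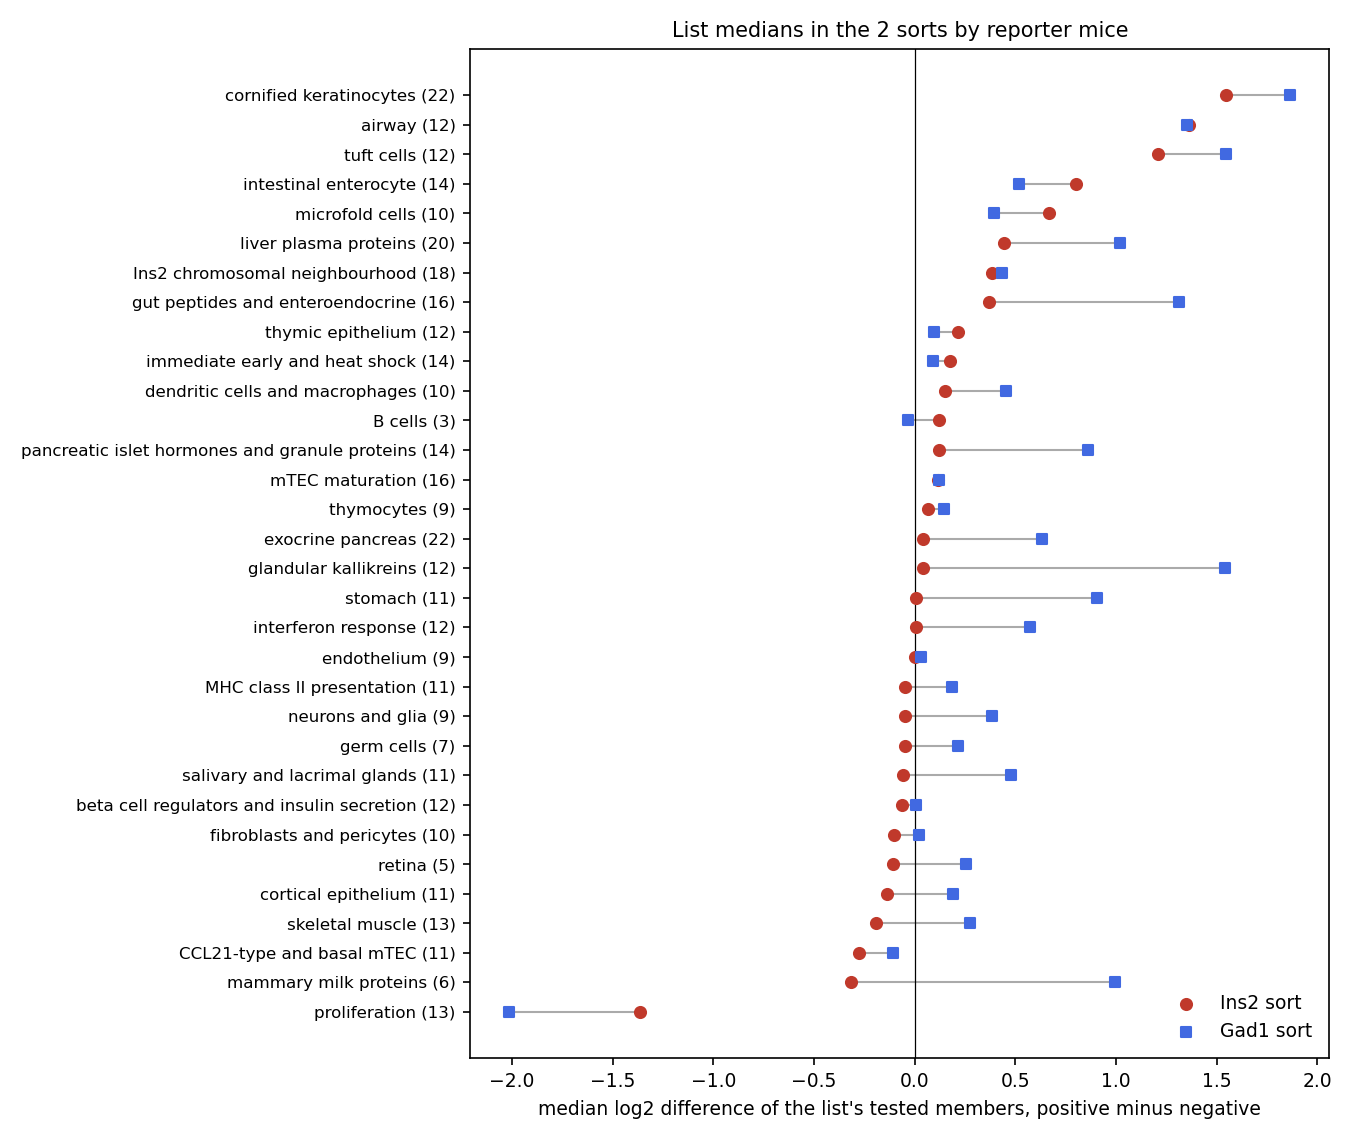
For each gene list, with the number of tested members in brackets, the red circle is the median log2 difference (positive minus negative) in the Ins2 sort and the blue square that in the Gad1 sort. Kallikreins stand at 0.04 and 1.54 and stomach genes at 0.01 and 0.91, whereas airway genes stand at 1.36 and 1.35.

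Set against the mean difference of the 5 other sorts, which includes the Gad1 sort, the Ins2 sort was above for 2031 genes (13.1%) and below for 1768 (11.4%), together 24.5%. Such a mean can hide a single sort that moved like the Ins2 sort. Ttr stood furthest above, with 3.28 in the Ins2 sort and 0.12 over the other sorts (difference 3.16, adjusted p = 6.4e-15). Its mean joins sorts of opposite direction. Ttr was at 2.37, 0.70 and 1.31 in the Gad1, Cea1 and Tspan8 sorts, and at -2.13 and -1.64 in the Pdpn and Gp2 sorts. Smtnl1, a smoothelin-like protein, was at 2.09 and -0.48, Apoa4 at 2.80 and 0.31, Guca2b at 3.08 and 0.74, and Igf2 at 2.11 and -0.15. H19 was at 1.75 and -0.01 (difference 1.76, adjusted p = 1.2e-10). The mean of the other sorts combines, for Igf2, 2.52 in the Gad1 sort with values from -2.35 to 0.57 in the remaining sorts, and, for H19, 1.96 in the Gad1 sort with values from -1.18 to 0.16. Apoa4 and Guca2b were at 1.85 and 2.32 in the Gad1 sort. In the remaining sorts they ranged from -0.79 to 0.86 and from -0.11 to 0.95. Ins2 itself was at 1.00 in its own sort and at -0.21 over the other sorts. Genes of gut peptides were above the other sorts for 12 of 16 and enterocyte genes for 9 of 14, whereas against the Gad1 sort alone 3 gut peptide genes were above and 8 below, and 3 enterocyte genes above and 1 below. In contrast, tuft cell genes, with medians of 1.21 and 1.14, were above for 1 and below for 1 of 12. For Trpm5 the mean joins sorts of opposite direction. It was at -0.99 and -0.80 in the Pdpn and Gp2 sorts, and at 1.45, 3.87 and 2.64 in the Gad1, Cea1 and Tspan8 sorts. Scarf2, a scavenger receptor family member, was at -1.14 in the Ins2 sort and 1.52 over the other sorts, and Cxcl12 was at -0.90 and 1.24. The means of both genes rest on the Pdpn and Gp2 sorts, where Scarf2 was at 3.29 and 4.11 and Cxcl12 at 2.11 and 4.26. Tmsb10 and Rps7 were also below, at -3.38 against -1.26 and at -2.87 against -0.98. In the Tspan8 sort alone, Tmsb10 was at -3.64 and Rps7 at -1.98. Aire, at -0.37 in the Ins2 sort and -1.40 over the others, was above them (difference 1.03, adjusted p = 4.7e-06). That mean combines -0.05 in the Gad1 sort with -1.27, -2.17, -0.95 and -2.55 in the Pdpn, Gp2, Cea1 and Tspan8 sorts. Against the Gad1 sort alone, Aire was at -0.31 and did not pass the test (adjusted p = 0.273).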

How the data were processed

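RNA of the 6 arrays was amplified to biotin-labelled cRNA and hybridised to Illumina mouse bead arrays, per the labels' protocols. Signal comes from the authors' deposited series table of normalized intensity, linear in scale, whose normalization is not given in the sources used here, and log2 of it was taken. Detection p-values come, per the file headers, from the deposited unnormalized table, whose bead intensity column for Ins2-negative replicate 2 repeats detection p-values of Ins2-positive replicate 1. That 1 column was not used. All 46089 probes of both tables were linked by their values over the other arrays. The platform annotation gave 35667 probes 1 symbol and 10422 none, and symbols were updated with GRCm38.p6 names.

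Probes detected on at least 2 of 3 arrays of either group were kept (26935, of which 22680 with a symbol), and the brightest probe stood for its gene. Of 2271 called genes with another kept probe, 1769 had all of them of the same sign. Differences were fitted with lmFit and eBayes (trend) of limma 3.58.1 in R 4.3.3, two-sided, on 6 arrays (4 residual degrees of freedom), and contrasts between sorts on all 35 arrays (23 degrees). The fits were tested on simulated data. Tables were made in Python 3.11.15.

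The members and gene lists were chosen with earlier results of these data known. Named genes are Ins2, Guca2b, Ttr, Aire, Fezf2, Cd80, H2-Aa and Ccl21a; called genes without overlap that had the greatest increases (12) or decreases (10); the largest with 1 group undetected; in each list up to 4 genes of lowest adjusted p; and the 6 extremes in each direction of both contrasts, chosen among genes called in the Ins2 sort. Further members of the 32 lists were named after their values were seen. Alternatives changed normalization, background correction, filter, array weights, probes, threshold, pairing and arrays. All units are the authors' normalized intensity unless neqc is named.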

Additional observations from a re-analysis of the deposited data

Results flagged for a closer look

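The items here are differences between sorts that passed the test of the difference itself (limma contrast over 35 arrays, Benjamini and Hochberg adjusted p under 0.05), each given as the Ins2-sort log2 difference minus that of the other sorts. The genes at the extremes were picked for their size, so their values are descriptions.

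Against the Gad1 sort, the sorted gene Ins2 was at -0.97, Guca2b at 0.75 and Ttr at 0.92. The Guca2b call was lost without Ins2-positive replicate 3 (0.47, adjusted p = 0.134) and without Ins2-negative replicate 2 (0.67, adjusted p = 0.0669). The highest values were those of Tkfc (1.90), Pigt (1.65), Rab11fip4 (1.56), Ap2b1 (1.48), Dync1h1 (1.47) and F10 (1.46), of which Pigt and Ap2b1 have other probes that disagree in sign within the Ins2 sort. The lowest were those of Klk1b27 (-3.25), S100a8 (-3.06), Sncg (-3.04, with another probe of opposite sign), Tsc22d1 (-3.00), Mgp (-3.00) and Pth (-2.81). Pth, the parathyroid hormone gene, had log2 signals of 6.93, 8.51 and 6.82 in Ins2-positive cells, against 10.28, 10.09 and 8.34 in Ins2-negative cells, so that its groups overlapped by 1 array of each.

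Against the mean of the 5 other sorts, Ins2 was at 1.21, Guca2b at 2.33 and Ttr at 3.16. For Ins2 and Ttr that mean joins sorts of opposite direction. In the Gad1 sort Ins2 differed by 1.97 and Ttr by 2.37, and in the Pdpn sort by -1.18 and -2.13. Further values above were Smtnl1 (2.57), Apoa4 (2.49), Reg3b (2.29) and Igf2 (2.26). Reg3b differed by 2.22 in the Gad1 sort, 1.90 in the Cea1 sort and 2.33 in the Tspan8 sort. In the Pdpn and Gp2 sorts Reg3b differed by -1.21 and -0.82. Apoa4 differed by 1.85 in the Gad1 sort and by -0.79 to 0.86 in the remaining sorts. Igf2 differed by 2.11 in the Ins2 sort and by 2.52 in the Gad1 sort, which is 1 of the 5 averaged. Values below were Scarf2 (-2.66), Mgp (-2.57), Cxcl12 (-2.14), Tmsb10 (-2.12), Rps7 (-1.88) and Ch25h (-1.78). Mgp differed by 3.64 in the Pdpn sort, and Tmsb10 by -3.64 in the Tspan8 sort.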

How the results depend on the processing

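The number of arrays, the uncorrected background under dim probes and the missing unnormalized signal of 1 array limit these values. The main numbers of genes higher in Ins2-positive cells, genes lower in Ins2-positive cells and genes changed in the Ins2 sort were 2943, 3019 and 5962. With every probe tested on its own they were 4416, 4938 and 9354 probes, since more features are tested, and with at least a 2-fold difference 487, 349 and 836 genes. Leaving out 1 array at a time gave 2423 to 2786 higher, 2533 to 2765 lower and 4956 to 5535 in all, an Ins2 difference of 0.93 to 1.07, counts of 1491 to 1759 above, 1853 to 2087 below and 3367 to 3846 in all against the Gad1 sort, and 1614 to 1932 above, 1381 to 1589 below and 3012 to 3521 in all against the 5 other sorts. Under quantile normalization, median scaling, neqc and an added constant of 50, the counts of the Ins2 sort stayed within 1.5 times. They did so too under other detection filters, array weights and the fit of 35 arrays, and Ins2 kept its call throughout. Counts between sorts were refitted only with quantile normalization, median scaling, no detection filter, the replicate block and single arrays left out. With both normalizations and without the filter they stayed within 1.5 times. Over called genes, 5947 of 5954 had the same sign with neqc, with a median ratio of log2 differences of 1.45 (neqc over the authors' values).

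Same-numbered arrays of both groups deviated together with correlations of 0.18, 0.11 and 0.08, so the numbers were not taken to pair the arrays. Each of the 3 positive arrays correlated best with its own number, a hint from the data and not the design. With the replicate block, the numbers of genes higher in Ins2-positive cells and genes lower in Ins2-positive cells were 3090 and 3176, and the Ins2 difference stayed at 1.00.

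Of 177 results for named genes, 146 kept direction and call in every alternative run and 31 changed in at least 1. Of 2513 such values, 54 lost the call, 25 gained it and 9 changed sign without a call in the main or the alternative run. Besides those given with their genes above, Adgre1, Chrna1, Csn2, Gad1, Mrc1, Pecam1, Sag and Syt1 lost their call in at least 1 alternative, and the cause was not tested. The medians of the salivary, stomach, neuron and glia, mTEC maturation, interferon and endothelial lists, all near 0, changed sign with neqc, quantile normalization or median scaling, and those of the kallikrein, MHC class II and thymocyte lists without single arrays. Immediate early genes were higher for 2 in place of 4 without Ins2-positive replicate 1 or Ins2-negative replicate 2, thymic epithelial genes lower for 3 in place of 5 without Ins2-negative replicate 1, neuron and glia genes lower for 1 in place of 3 without Ins2-positive replicate 3 or Ins2-negative replicate 2, and thymocyte genes higher for 0 in place of 2 without Ins2-positive replicate 1 or 3 or Ins2-negative replicate 1 or 3.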
